A study of Drosophila melanogaster with 2 samples.

Results

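Cytoplasmic ribosomal protein genes, which encode the proteins of the ribosomes that translate nuclear messenger RNAs, made up 92 of the 13986 protein-coding genes in the annotation. They were chosen by symbol (RpL or RpS followed by a digit, plus sta, RpLP0, RpLP1 and RpLP2), without the mitochondrial ribosomal protein genes and without RpLP0-like. The large subunit accounted for 53 and the small subunit for 39 of them. A Bowl-eGFP peak was nearest to 44 of the 92 genes, or 47.8% (95% Wilson interval 37.9 to 57.9), against 12% of all protein-coding genes. The peaks were 47 of the 2198 in the list called from both replicates pooled, and 43 of the 47 had their summit no more than 500 bp from where transcription starts. RpL7, RpL32, RpS27 and RpL14 carried the highest signals of the family. The family was taken up because its share of genes with a peak was already known to be high in these data, so that share is given as a description.

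The series mapped where a transgenic fusion of Bowl and enhanced green fluorescent protein sat on the genome of Drosophila melanogaster. Whole embryos of the bowl-GFP strain, aged 0 to 24 h, were sonicated to fragments of 200 to 800 bp, and the bound DNA was recovered with an antibody against GFP and sequenced (chromatin immunoprecipitation followed by sequencing, ChIP-seq). There were 2 biological replicates, both carrying the fusion, and no second genotype, age or treatment, so no comparison between conditions and no test across samples was possible. The control that the deposited notes mention was not analysed here, and the files give neither read counts nor depth. All embryonic cell types and all ages in the window were mixed, so the peaks cannot be assigned to a tissue in which Bowl is present.

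Ribosomal proteins are needed in equal amounts, and their genes are among the most strongly transcribed in growing cells. Flies heterozygous for a mutation in any of many such genes show the Minute phenotype of slow development and short, thin bristles. Many of these promoters start transcription at a pyrimidine-rich initiator, called the TCT motif, in place of the usual initiator, and the TBP-related factor TRF2 acts at them. DREF, the factor of the DNA replication-related element, is another known regulator of fly ribosomal protein genes. Bowl is a zinc-finger protein of the odd-skipped family with known roles in the embryonic hindgut and in leg joints.

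The stretches below run from 80 bases before to 20 bases after an annotated start site and show the promoters on which the later results turn. The first 6 belong to genes with a peak, and the last 2 to genes whose strongest candidate was high but was not in the pooled list. Capitals mark the pyrimidine initiator nearest the start (CTTT after a pyrimidine), the core of the DREF site (ATCGATA, either strand) and the word ACAGTGG. Sequences and positions are those of RefSeq Release 6 (dm6), read along the gene.
RpL32 (chr3R:30046141-30046241, minus strand): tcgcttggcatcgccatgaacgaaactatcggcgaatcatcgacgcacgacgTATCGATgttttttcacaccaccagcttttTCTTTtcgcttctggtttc
RpL14 (chr3L:8600926-8601026, plus strand): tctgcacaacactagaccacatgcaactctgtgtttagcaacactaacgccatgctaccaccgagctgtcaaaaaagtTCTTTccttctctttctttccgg
RpL34b (chr3R:9401206-9401306, minus strand): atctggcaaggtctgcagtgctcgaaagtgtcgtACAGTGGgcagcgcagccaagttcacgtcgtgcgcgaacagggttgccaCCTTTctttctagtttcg
RpS28b (chrX:9554543-9554643, plus strand): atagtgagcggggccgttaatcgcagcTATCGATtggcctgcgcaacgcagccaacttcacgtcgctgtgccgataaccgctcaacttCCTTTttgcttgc
RpS25 (chr3R:11216267-11216367, minus strand): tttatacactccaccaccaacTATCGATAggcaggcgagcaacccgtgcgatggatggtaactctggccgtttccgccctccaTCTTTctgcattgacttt
RpL27 (chr3R:25685031-25685131, minus strand): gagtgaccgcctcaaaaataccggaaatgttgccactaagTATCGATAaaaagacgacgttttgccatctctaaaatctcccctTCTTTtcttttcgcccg
RpL13A (chr3R:5624394-5624494, plus strand): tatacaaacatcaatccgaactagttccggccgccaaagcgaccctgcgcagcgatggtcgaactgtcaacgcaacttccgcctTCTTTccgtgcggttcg
RpL10Ab (chr3L:11822771-11822871, plus strand): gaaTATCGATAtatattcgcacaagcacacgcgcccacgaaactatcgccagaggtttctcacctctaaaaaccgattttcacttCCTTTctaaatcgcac
All 8 stretches held the initiator close to the start. The DREF core stood in the stretches of RpL32, RpS28b, RpS25, RpL27 and RpL10Ab and in none of those of RpL14, RpL34b and RpL13A. The summits of RpL32 and RpL34b lay upstream of the bases shown.

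A peak here is a region that passed the irreproducible discovery rate (IDR), which asks whether a candidate region ranks alike in repeated data. The threshold was an IDR of 0.01, or 2 on the −log10 scale. The signal of a region is a score from the authors' peak calling. No scale is stated for it, so it is used only to describe and rank regions within a list. Replicate signals come from separate lists, so a ratio between them is to be read beside the ratios over all pooled peaks. The summit is the position of highest signal in a region, and its distance from a start site is negative upstream of the gene. A peak was given to the gene with the nearest protein-coding start site (TSS), without an upper limit on distance.

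Among the large subunit genes, RpL7 and RpL32 had the strongest peaks. RpL7 had a signal of 191.8, with 112.6 in replicate 1 and 79.3 in replicate 2, and its summit lay 33 bp downstream of the TSS (2L, 10200882 to 10201191). RpL32, the gene widely used as a reference in fly expression assays, had 184.7, with 102.0 and 86.9 in replicates 1 and 2 and a summit at −106 bp (3R, 30046254 to 30046352). RpL14 had 170.6 in the pooled list, 108.8 in replicate 1 and 60.2 in replicate 2, at −59 bp (3L, 8600792 to 8601101). These 3 genes had a called peak in each replicate's own list. All 3 signals were higher in replicate 1, as were those of 1866 of the 2155 pooled peaks with a candidate in both. RpL34b followed with 142.8 in the pooled list and 101.9 and 43.5 in the replicates, at −104 bp (3R, 9401175 to 9401484). RpL41, whose product is a very short basic peptide, had 124.7 with 68.6 and 57.5 in the replicates. RpL24 had 120.2 with 87.3 and 34.4, and it was called in replicate 1 and not in replicate 2. RpL24 lay well above the pooled median of 82.6. Its ratio of replicate 1 to replicate 2 was 2.54, against a median of 1.63 over the pooled peaks with a candidate in both.

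Other large subunit genes lay between 62.0 and 113.0. RpL30 had 113.0 and RpL22 had 111.3, with replicate signals of 73.2 and 41.7 for the former and 52.4 and 52.8 for the latter. RpL3, which lines the peptidyl transferase centre, had 97.4 at +11 bp, and RpL8, another protein near that centre, had 99.1 at the same distance. RpL11, which binds the 5S ribosomal RNA together with RpL5, had 103.2 at −118 bp, while RpL5 itself had no peak. The proteins of the lateral stalk, which recruit the translation factors, were split. RpLP0 had a peak of 107.6 at −24 bp, with 47.9 in replicate 1 and 64.8 in replicate 2. The nearest peak to RpLP2 had a signal of 77.7 but lay at −2075 bp in an intron of Cdk4, which encodes a cell cycle kinase. RpLP1 had no pooled peak, and its strongest candidate had a signal of 62.6.

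Of the small subunit genes, RpS27 had the highest signal, 177.05, with 80.8 in replicate 1 and 97.1 in replicate 2 at +13 bp (3R, 25247452 to 25247557). RpS28b had 141.3, with 57.9 and 82.5 at −34 bp (X, 9554538 to 9554641). Both were called in each replicate and both were higher in replicate 2, unlike the leading large subunit genes. RpS20 had 115.2, with 79.7 and 32.8, at −152 bp, and RpS21 had 114.0, with 56.6 and 56.2, at +10 bp. RpS25 had 113.9, with 59.8 and 49.6, at −70 bp. RpS27A, which encodes a fusion of ubiquitin and a ribosomal protein, had 109.9, with 64.4 and 37.8, at −96 bp, and that summit was equally far from the start of Ip259. The gene sta, which encodes the small subunit protein known as SA in mammals, had 88.9 at +35 bp. RpS20 and RpS21 thus had nearly equal pooled signals. Their ratios of replicate 1 to replicate 2 were 2.43 and 1.01, on either side of the median of 1.63 over the pooled peaks with a candidate in both.

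**Figure D1:**
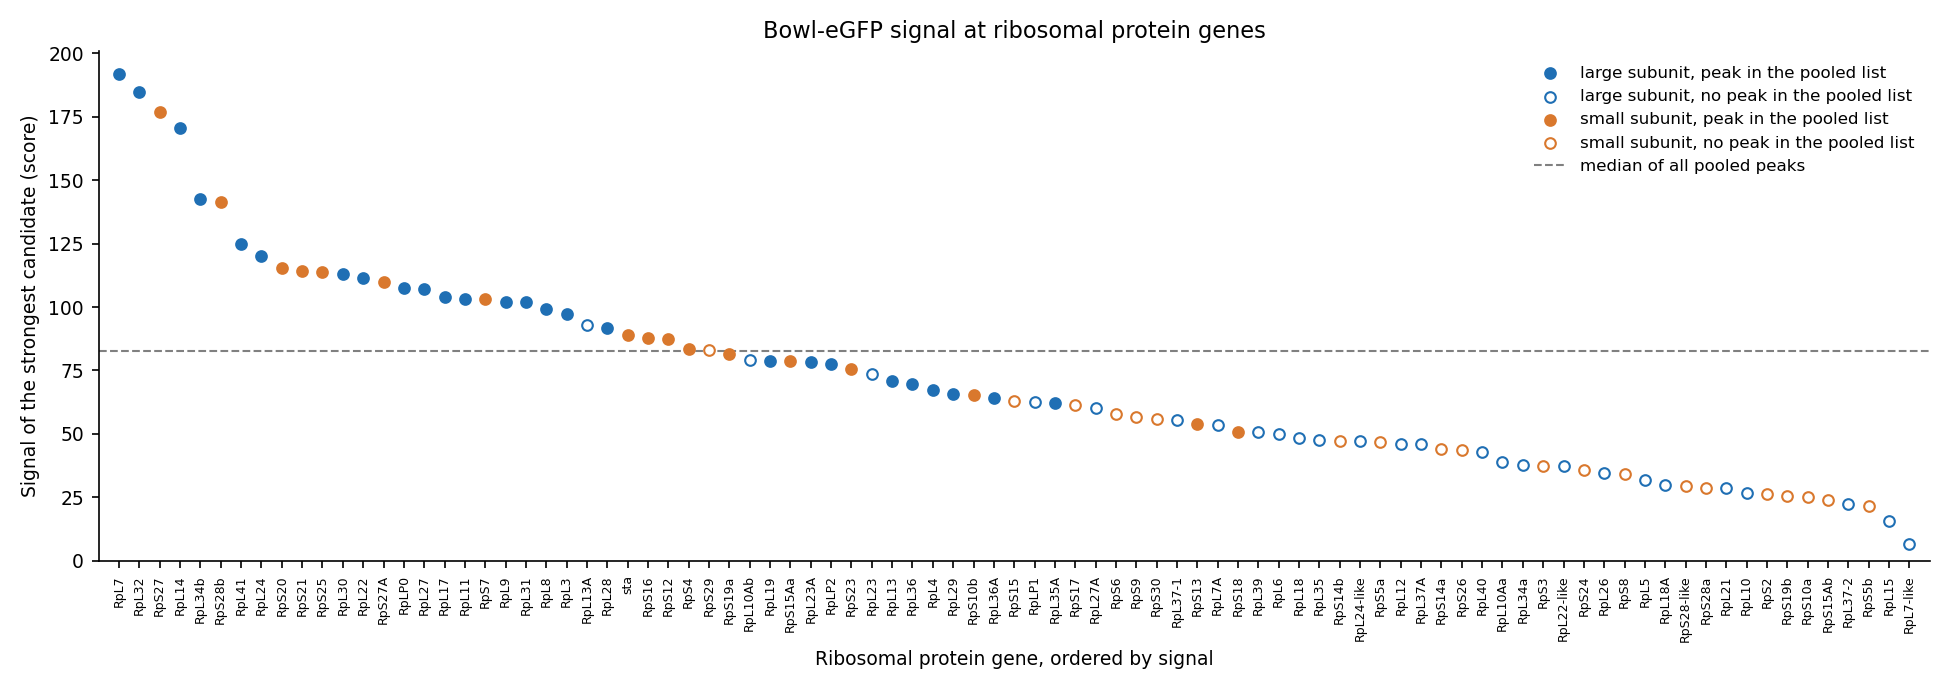
Signal of the strongest pooled candidate region (score of the authors' peak caller, vertical axis) for ribosomal protein genes with a candidate, ordered by signal. Filled points are genes with a peak in the pooled list, open points are genes without, colours give the subunit, and the dashed line is the median of all pooled peaks, 82.6. RpL7 leads with 191.8, filled and open points mix between 50.7 and 93.1, and large and small subunit genes are spread over the whole order.

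Large and small subunit genes had a peak about equally often. The counts were 26 of 53 large subunit genes, or 49.1% (36.1 to 62.1), and 18 of 39 small subunit genes, or 46.2% (31.6 to 61.4). The difference was 2.90 percentage points (95% Newcombe interval −17.1 to 22.5), which leaves room for differences of either sign. In the list of replicate 1 alone the difference was −5.18 points, with 19 large and 16 small subunit genes, so its sign depended on which data were used. The strongest signal per gene had a median of 102.0 over the large (62.0 to 191.8) and of 87.7 over the small subunit genes (50.7 to 177.05), with quartiles of 77.8 and 112.6 and of 76.4 and 112.9. Summits of the large subunit genes had a median position of −27.5 bp (quartiles −58.25 and 5), and 19 of 26 lay upstream of the TSS. Those of the small subunit genes had a median of 1.5 bp (quartiles −61 and 18.25), and 9 of 18 lay upstream. The signal ranges and the positions of the 2 subunits overlapped widely. Intervals here cover counting error over genes and not the variation between embryo collections.

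Compared with all 2198 pooled peaks, those of the ribosomal protein genes were of middling strength. The 47 member peaks had a median signal of 91.9, while all pooled peaks had a median of 82.6 and quartiles of 66.6 and 120.2. Taking the strongest peak of each gene, the median was 98.2 over the 44 members (quartiles 77.2 and 113.2) and 89.3 over the other 1634 genes with a peak. The best rank of a ribosomal protein gene was 223, held by RpL7, and 6 member peaks were among the first 500. Among the lowest stood RpL36A with 64.2, RpL35A with 62.0, RpS13 with 53.9 and RpS18 with 50.7. Peaks just inside the threshold were those of RpS13 with a −log10 IDR of 2.00, RpL36A with 2.08, RpS23 with 2.11 and RpS10b with 2.14. Just outside were candidates of RpS30 with 1.86, RpL23 with 1.83 and RpL37-1 with 1.66.

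The summits lay close to the start sites. Over the 44 genes the median position was −22 bp (95% interval of the median −41 to 9), and it was −11 bp with 1 TSS per gene and −33 bp in the list of replicate 2 alone. The median distance regardless of side was 33 bp, and 40 summits were within 120 bp, a limit picked after the values were seen. In promoters, 28 of 43 member peaks, or 65.1% (50.2 to 77.6), lay within 50 bp of the TSS, against 177 of 1034 promoter peaks of other genes, or 17.1% (14.9 to 19.5). The median position was −15 bp at ribosomal protein genes and −94 bp at other genes. Upstream positions made up 60.5% (45.6 to 73.6) of the former and 71.2% (68.3 to 73.9) of the latter. No test was run on these shares, since the peaks come from 1 pooled sample. 

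**Figure D2:**
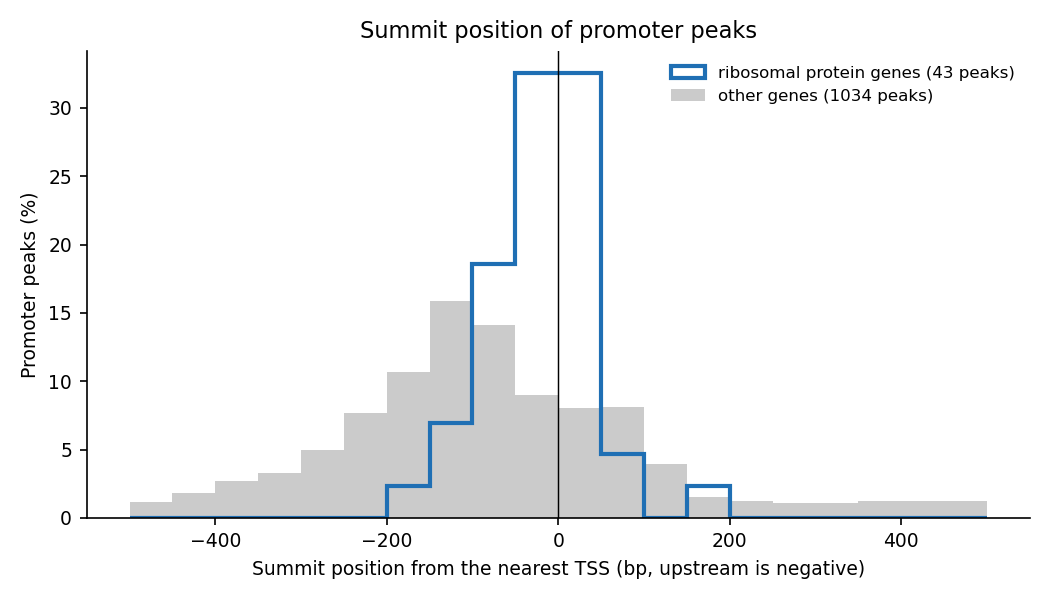
Position of the summit relative to the nearest TSS in bp (horizontal axis, upstream negative) for promoter peaks, as the percentage of peaks per bin (vertical axis). The blue line shows the 43 peaks at ribosomal protein genes and the grey bars the 1034 at other genes. The blue line is highest in the bins on either side of the TSS, and the grey bars are highest upstream, where their median is −94 bp.

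Only 4 member peaks lay outside the 500 bp around a TSS. They included that of RpLP2 and a peak at +773 bp in an exon of RpS13 (2L, 8363668 to 8363977), with 49.2 and 7.44. Another was the weaker of the 2 peaks of RpL14, at +588 bp in its intron (3L, 8601439 to 8601748), with a pooled signal of 74.5 and replicate signals of 36.0 and 44.9. The peak of RpS13 had by far the weaker signal in replicate 2, unlike that of RpL14. RpL4 and RpL11 also had a second summit, at +153 and +89 bp with signals of 15.6 and 9.14. Each lay in a region overlapping the stronger one, at −47 and −118 bp, and the stronger region supplied its replicate signals. A peak given to Trmt61, with a signal of 58.7, had its summit at −45 bp of that gene and at −184 bp of RpL34a, and was not counted for RpL34a.

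All 47 member peaks had a candidate region in each replicate. The replicate signals had a median of 52.4 in replicate 1 (29.9 to 112.6) and of 34.4 in replicate 2 (7.44 to 97.1). Replicate 1 was higher at 36 of the 47, with a median ratio of 1.59 (quartiles 1.01 and 1.99). The overlapping peaks of RpL4 have the same replicate signals, as do those of RpL11, and each peak is counted in these values. Over the 2155 pooled peaks with a candidate in both, replicate 1 was higher at 1866. The median ratio there was 1.63 (quartiles 1.22 and 2.14). Among the largest ratios were those of RpS13 with 6.61 and RpL24 with 2.54. Replicate 2 was the higher at RpS28b with a ratio of 0.702, RpLP0 with 0.739 and RpS19a with 0.759. The rank correlation of the replicate signals was 0.33 over the 47 member peaks and 0.52 over the 2155, as a description of peaks that share their libraries. Summits moved by a median of 5 bp in replicate 1 and 13 bp in replicate 2 relative to the pooled summit, against 9 and 23 bp over all pooled peaks.

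**Figure D3:**
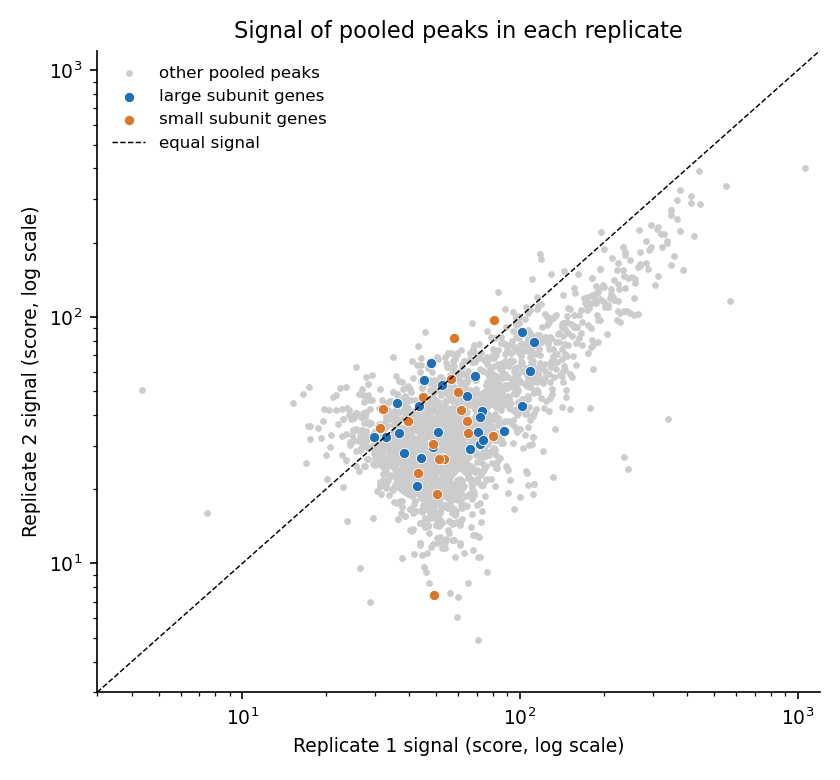
Signal of each pooled peak in replicate 1 (horizontal axis) and replicate 2 (vertical axis), both scores of the authors' peak caller on log scales. Blue and orange points are peaks at large and small subunit genes, grey points all other pooled peaks, and the dashed line marks equal signal. Of the ribosomal protein gene peaks 36 of 47 lie below the line, with RpS13 lowest at 7.44 in replicate 2. The peaks of RpL4 fall on the same point, as do those of RpL11.

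Fewer genes were called when each replicate was taken alone. The list of replicate 1 held 35 of the 92 genes, or 38.0%, against 9.46% of all protein-coding genes. The list of replicate 2, with 772 peaks against 1662 in replicate 1, held 19 of the 92, or 20.7%, against 4.91%. The conservative list held 42, or 45.7%, against 9.04%. In each of the 4 lists the share of ribosomal protein genes was above that of all genes, and 50 of the 92 genes had a peak in any of them. The lists derive from the same 2 replicates, so they are not separate observations. At 15 of the 47 member peaks, or 31.9%, both replicates had an overlapping called peak, near the 29.1% over all pooled peaks. These 15 belonged to 10 large and 5 small subunit genes, and all had a pooled signal of at least 78.6. Neither replicate had a call at 9 of the 47, or 19.1%, against 29.3% of all pooled peaks. Of these 9, RpL28 had the highest pooled signal, 91.9. Replicate 2 alone called RpS21, RpL22, RpL17, RpS19a and the weaker peak of RpL14. These were 5 of the 47, or 10.6%, against 5.46% of all pooled peaks.

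Most of the 48 genes without a peak had some signal in the promoter. A candidate region outside the pooled list was nearest to 46 of them at any distance, with a median signal of 43.7. Some of these lay far away, as at +50138 bp of RpL5 and +33867 bp of RpL10. In the promoter, 39 of the 48 had such a candidate, with a median of 44.0 (quartiles 29.4 and 56.2). The presence of a candidate alone says little, as the pooled table held 132019 of them for 13986 protein-coding genes. The strongest promoter candidates of the other 9253 genes without a peak had a median of 26.9 (quartiles 18.7 and 36.3). RpL13A had the strongest, 93.1 at −55 bp (3R, 5624264 to 5624573), with a −log10 IDR of 2.83. It passed the threshold and yet was absent from the pooled list, 1 of 89 such candidates in the ranked table. RpS29 had 83.2 at +6 bp and RpL10Ab 79.0 at −3 bp, with −log10 IDR values of 0.859 and 1.29. RpL23 had 73.4 at −247 bp and RpS15 had 62.9. RpS29, RpL10Ab and RpL23 were in the conservative list, and RpS29, RpS15 and RpLP1 in that of replicate 1. RpL38 and RpS3A had no candidate in the pooled table, although the list of replicate 1 held a peak of 55.4 at +7 bp of RpS3A (4, 67048 to 67351).

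Gene copies differed within the families. In 12 families of 25 genes with symbols that differ in a final letter, number or "like", 8 families had a peak at exactly 1 copy, 4 had none. Thus 8 of 25 such genes had a peak, or 32.0% (17.2 to 51.6), against 36 of 67 other members, or 53.7% (41.9 to 65.1). For a copy without a peak, the signal given is that of its strongest candidate, with its distance from the TSS where that was over 500 bp. RpL22 had a peak of 111.3, while the candidate of RpL22-like, a copy expressed in the germ line, had 37.2 and lay at −8044 bp. RpL24 had 120.2 and RpL24-like, a factor of ribosome assembly, 47.2 at +583 bp. RpL7 had 191.8 and RpL7-like 6.57, RpL34b 142.8 and RpL34a 37.9, and RpS28b 141.3 against 28.8 at RpS28a and 29.5 at RpS28-like. RpS19a had 81.4 and RpS19b 25.6 at +528 bp, RpS15Aa 78.6 and RpS15Ab 23.8, and RpS10b 65.5 and RpS10a 25.2 at +1378 bp. Without a peak at either copy were RpL10Ab with 79.0 and RpL10Aa with 38.7 at +8707 bp, RpL37-1 with 55.6 and RpL37-2 with 22.4 at +718 bp, and RpS5a with 46.8 and RpS5b with 21.6. RpS14a and RpS14b, near-identical neighbours 1156 bp apart, had 44.0 and 47.3, and how reads shared by such copies were treated is not given in the sources used here.

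Several features of these promoters did not enter the choice of genes. A pyrimidine initiator with its C within 10 bp of an annotated TSS was found at 75 of the 92, or 81.5% (72.4 to 88.1), against 6.35% of all protein-coding genes. Within 2 bp the shares were 19.6% and 1.32%. The genes with a peak held it within 10 bp in 39 of 44 cases and those without in 36 of 48. Of the copies compared above, RpL10Aa, RpL22-like, RpL24-like, RpL34a, RpS10a, RpS15Ab, RpS19b, RpS28a and RpS28-like lacked it, and these 9 had no peak. RpL10Ab, RpL37-1, RpL37-2, RpL7-like, RpS14a, RpS14b, RpS5a and RpS5b held it and had no peak either. From the initiator's C the summits lay at a median of −33 bp (quartiles −65.5 and 7.5, 39 genes). The stretches shown above for RpL32 and RpS28b are examples with the summit upstream of the initiator.

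The DREF core ATCGATA, searched on both strands, lay within 100 bp of 13 of the 47 summits, or 27.7% (16.9 to 41.8), against 6.67% of other promoter peaks. The 13 genes were RpL32, RpS28b, RpL41, RpS25, RpL27, RpS7, RpS12, RpS19a, RpL19, RpS15Aa, RpL13, RpL36 and RpL36A. All 18 copies there were upstream of the TSS, at a median of −56 bp, and 42.5 bp from the summit in the median. In the promoter window of 250 bases before and 50 from the TSS on, the core stood at 18 of 44 genes with a peak and at 18 of 48 without. Over all 92 that was 39.1%, against 17.6% of all protein-coding genes. Its share was thus 40.9% with a peak and 37.5% without. RpL13 shares its upstream region with Dref itself, which is transcribed from the other strand 101 bp away.

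The other words searched, also on both strands, gave mixed counts. Here and for the DREF core, the 47 summits include those outside promoters, while the other peaks compared all lie in promoters. The TATA box TATAAA lay near 7 of 47 summits, or 14.9%, against 31.8% of other promoter peaks. The distant peak of RpLP2 was among the 7. Within 100 bp of the summit the median share of G and C was 43.3% at member peaks and 38.3% at other promoter peaks. In the promoter window, however, TATAAA stood at 42 of the 92 genes, or 45.7%, against 45.3% of all protein-coding genes. The motif 1 core GTCACA lay near 7 of 47 summits, or 14.9%, against 8.61% of other promoter peaks. ACAGTGG, a word picked earlier because it was frequent over all summits of these data, lay near 1 of 47, that of RpL34b, or 2.13% (0.377 to 11.1), against 8.12% of other promoter peaks and 10.3% of all pooled peaks. The odd-skipped family core CAGTAGC and the GAGA word GAGAGAG were near 0 of the 47, which allows a share of up to 6.38%, against 2.42% and 8.22%. A match is a description of letters and says nothing of which factor was bound. Among all words of 7 bases, CCGGAAA and CGTTTCC were most in excess near member summits, at 15 and 14 of 47, against 1.74% and 1.84% of other promoter peaks. They were picked from that ranking, so their excess was built in. In the promoter window CCGGAAA stood at 16 of 44 genes with a peak and at 11 of 48 without, against 2.76% of all protein-coding genes.

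**Figure D4:**
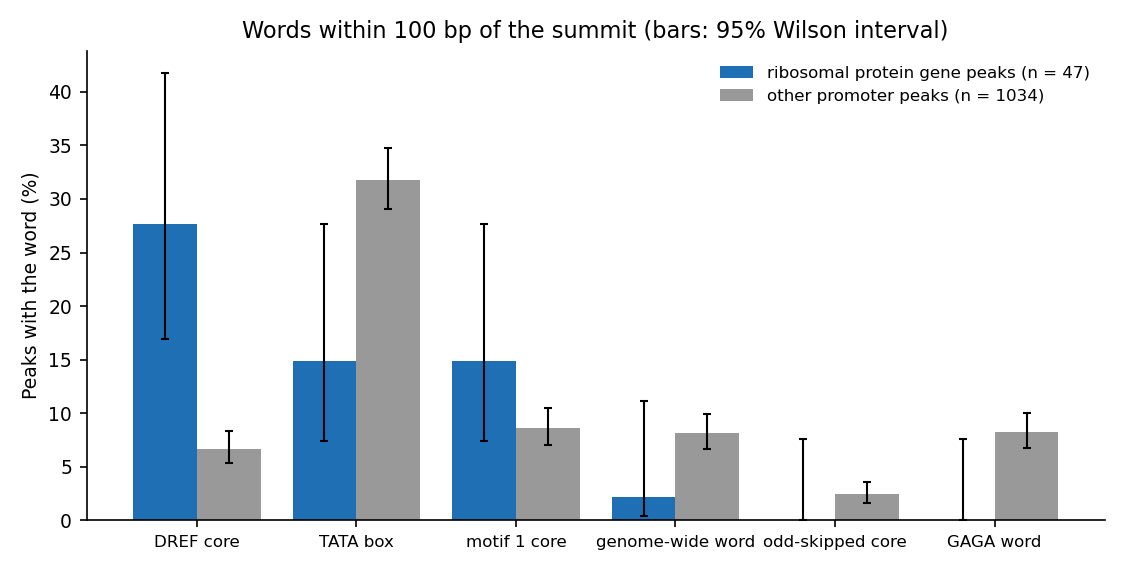
Percentage of peaks (vertical axis) with each word within 100 bp of the summit, for the 47 ribosomal protein gene peaks in blue and the 1034 promoter peaks of other genes in grey, with 95% Wilson intervals as bars. The genome-wide word is ACAGTGG. The DREF core is at 27.7% against 6.67% and the TATA box at 14.9% against 31.8%, and the blue bars of the last 2 words are at 0.

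Gene arrangement also varied over the family. A start site on the opposite strand within 500 bp upstream was present at 22 of the 44 genes with a peak, or 50% (35.8 to 64.2), at 13 of the 48 without, or 27.1% (16.6 to 41.0), and at 25.3% of all genes. At such shared regions the immunoprecipitated DNA cannot be assigned to either gene. RpL7 lay 30 bp from Ripalpha, RpL14 127 bp from Nelf-E, RpS27 144 bp from Nup37 and RpL32 330 bp from CG7943, so each of the 4 strongest peaks lay at such a pair. Small nucleolar RNA genes, whose products guide the modification of ribosomal RNA, lay inside 29 of the 92 genes, or 31.5%, against 0.601% of all genes. The 29 together held 76 of the 269 annotated. Hosts were 17 of the 44 genes with a peak, or 38.6% (25.7 to 53.4), and 12 of the 48 without, or 25% (14.9 to 38.8). The median gene length was 1430.5 bp with a peak and 1148 bp without. Peaks fell on every large chromosome arm, at 9 of 19 genes on 2L, 10 of 20 on 2R, 7 of 14 on 3L, 10 of 23 on 3R and 8 of 15 on X.

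Other genes of the translation machinery gave the setting. Of 73 mitochondrial ribosomal protein genes 5 had a peak, or 6.85% (2.96 to 15.1), an interval that includes the 12% of all protein-coding genes. Among them mRpL41 with 710 and mRpL23 with 490 had signals far above RpL7. Translation initiation factor genes had a peak in 4 of 44 cases, or 9.09% (3.59 to 21.2), which also includes 12%. The strongest was that of eIF6, which keeps the large subunit from joining too early, at 481. Of the 7 elongation factor genes 3 had a peak, with eEF2, which drives translocation, at 75.7 and eEF1gamma at 466 from a summit at −5727 bp. Ribosome biogenesis genes had a peak in 2 of 17 cases, or 11.8%, near the share of all protein-coding genes. These were Ns1 with 98.9 from a summit at +7476 bp and Nopp140 with 67.2 at +31 bp. Of the 48 proteasome genes 0 had a peak, and so had 0 of the 17 genes for subunits of RNA polymerases I and III. These counts allow shares of up to 6.25% and 17.6%.

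**Figure D5:**
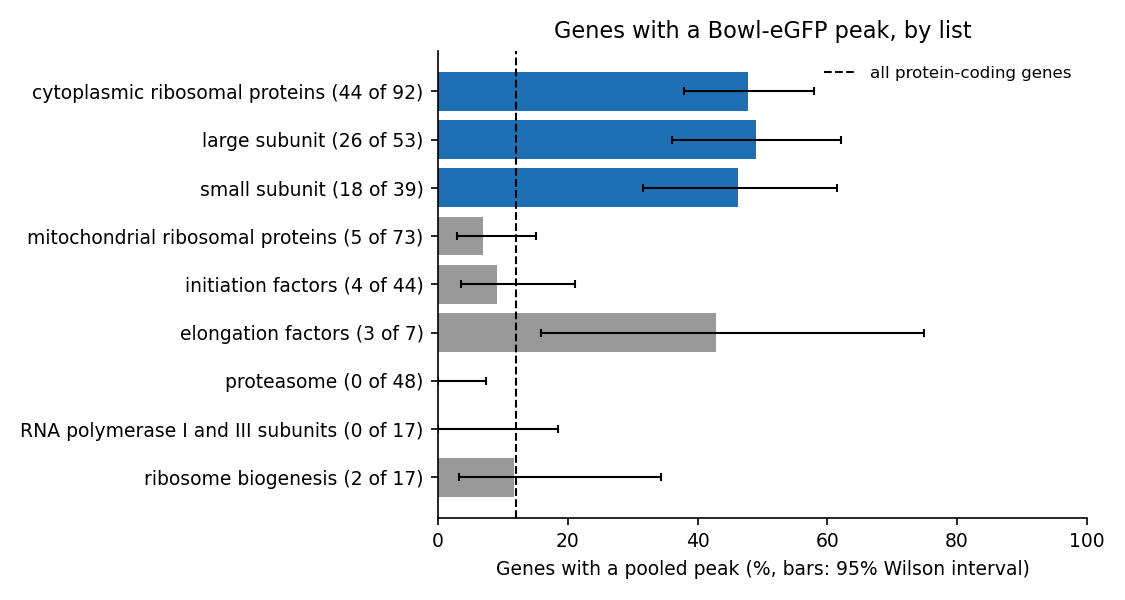
Percentage of genes with a pooled peak (horizontal axis, bars with 95% Wilson intervals) in the ribosomal protein genes (blue) and in related lists (grey), with the share of all protein-coding genes, 12%, as a dashed line. The ribosomal protein genes stand at 47.8%, large and small subunit genes at 49.1% and 46.2%, and mitochondrial ribosomal protein genes at 6.85%. The 7 elongation factor genes, at 42.9%, have the widest interval.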

How the data were processed

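The samples were 2 biological replicates of whole embryos carrying the Bowl-eGFP fusion, and per the labels the coordinates are those of dm6. The aligner, the peak caller, their versions and the read depth are not stated by the labels or notes. Per the deposited notes, lists derive from the alignments, a control and, for thresholded lists, 1 further file not analysed here. The deposited signal score of each region and its −log10 IDR were used as the authors gave them, with no rescaling. Of the ranked table between replicates, 2 signal columns that name no sample were not used.

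Each summit was given to the nearest protein-coding TSS of any transcript in Ensembl release 115 (BDGP 6.54), and a summit equally far from several genes was counted for each. Promoter words were searched in genes on the main chromosomes. A peak was matched to a replicate's candidate by an overlap of at least 1 bp, taking the strongest. Shares carry 95% Wilson intervals, and a count of 0 allows 3 counts of the total. Intervals cover counting error only. Analyses used Python 3.11.15, pandas 2.3.3, numpy 2.4.6 and scipy 1.17.1. The assignment, word and initiator searches were tested on simulated data. Genes named with values were those with the strongest 15 and weakest 5 peaks, distant or multiple peaks, gene copies, extreme replicate ratios and the strongest candidates without a peak, and some further members were named after their values were seen. The values of 1 member are not reported here, although it is included in the counts. The members and all lists were chosen with earlier results of these data known.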

Additional observations from a re-analysis of the deposited data

How the results depend on the processing

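Of 38 alternatives to the main values, 28 stayed within the limits set for a change, 9 moved and 1 reversed. Taking the list of 1 replicate gave 19 to 35 genes with a peak, a median signal of 51.2 to 58.8 on that list's own scale, and a difference between large and small subunit genes of −5.18 to 4.69 percentage points. The reversed value was −5.18, without replicate 2. The list of replicate 1 kept 31 of the 44 genes and gained 4, and that of replicate 2 kept 19 and gained 0. The conservative list kept 39 and gained 3. With peaks at or above the median signal, 28 genes remained, the median signal was 108.7 and the share in promoters was 100%. A promoter window of 1000 bp gave 97.9%. The share of promoters with the initiator was 81.5% for a C within 10 bp and 19.6% within 2 bp. Within 2 bp it was 6.52% with the gene start as the TSS, so the share rests on the window and the start sites used. Adding candidates past the threshold but absent from the list gained RpL13A, for 45 genes. No paired analysis was possible because both replicates belong to 1 group. Without read counts, the depth behind a missing peak is unknown.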

Other observations

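Members of the family that lie near each other on a chromosome could both carry a peak. RpS25 and RpL3, 5607 bp apart, had signals of 113.9 and 97.4, and RpS12 and RpS4, 18404 bp apart, had 87.5 and 83.6. RpL12 and RpL39, 2053 bp apart, had none in the pooled list, and of RpS15 and RpLP2, 14899 bp apart, only RpLP2 had one. Of the 7-base words most in excess near member summits, CGTTTCC read in the direction of the gene at all 14 summits that held it, at a median of 22 bp downstream of the TSS over 15 copies. CCGGAAA read in that direction at 2 of 15 summits and as its reverse complement at the others, at a median of 23.5 bp downstream over 16 copies. The 2 words can overlap, and both were picked from the ranking of these data.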
